A study of Mus musculus with 57 samples.

Results

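The 9 genes Fezf2, Bcl11b, Tbr1, Cux1, Cux2, Rorb, Bcl11a, Zfpm2 and Etv1 encode transcription regulators that mark the layers and classes of cortical projection neurons, and they were taken by name from the 26054 curated RefSeq genes on chromosomes 1 to 19 and X. The marks H3K4me3, H3K27ac and H3K27me3 of histone H3 were mapped by ChIPSeq in brain cortex and gastrocnemius, a muscle of the calf, of PSAPP mice, a transgenic model of Alzheimer's disease, sacrificed at 13 months of age. All groups carried the PSAPP genotype, were held on the same modified AIN-93 diet and had no wild-type counterpart here, so the comparison is between tissues of one model. For each mark there were 9 cortex and 10 gastrocnemius libraries from 10 mice, 9 of which gave both tissues. The labels give no sex and the sexes were pooled, and the sources used here do not name the promoter of the transgenes. Whole cortex and whole muscle hold many cell types, so fewer cells of a type and less mark per cell cannot be told apart.

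Projection neurons are the excitatory neurons of the cortex whose long axons reach other cortical areas or leave the cortex, and their layer identity is held by factors that repress each other during development. Fezf2 specifies subcerebral neurons of the deep layers, where Bcl11b (Ctip2) acts downstream of it, and Bcl11b is also a factor of striatal projection neurons. Tbr1 and Zfpm2 (Fog2) belong to corticothalamic neurons of layer VI, Etv1 (Er81) and Bcl11a (Ctip1) to deep-layer neurons among others, Rorb to layer IV, and Cux1 and Cux2 to the upper layers. H3K4me3 marks start sites that are active or poised, H3K27ac marks active promoters and enhancers, and H3K27me3 is deposited by the Polycomb repressive complex on silenced developmental genes, where it can share a start with H3K4me3.

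The 250 bases upstream of the start are shown for 5 of the members whose peak calls at the start differed between the tissues for a mark, namely Fezf2, Bcl11b, Tbr1, Rorb and Cux2. The other member with such a call, Zfpm2, is named only. The sequences are from RefSeq (GRCm38.p6, the assembly of mm10), 5′ to 3′ on the strand of the gene, with each CG dinucleotide in capitals. Fezf2 lies at chr14:12345866-12346115 on the minus strand, Bcl11b at chr12:108003415-108003664 (minus), Tbr1 at chr2:61804203-61804452 (plus), Cux2 at chr5:122049852-122050101 (minus) and Rorb at chr19:19111197-19111446 (minus).
Fezf2: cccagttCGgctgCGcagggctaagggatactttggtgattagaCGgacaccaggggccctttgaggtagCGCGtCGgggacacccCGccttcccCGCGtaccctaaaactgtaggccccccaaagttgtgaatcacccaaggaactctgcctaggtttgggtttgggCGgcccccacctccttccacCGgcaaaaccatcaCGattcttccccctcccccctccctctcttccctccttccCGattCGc
Bcl11b: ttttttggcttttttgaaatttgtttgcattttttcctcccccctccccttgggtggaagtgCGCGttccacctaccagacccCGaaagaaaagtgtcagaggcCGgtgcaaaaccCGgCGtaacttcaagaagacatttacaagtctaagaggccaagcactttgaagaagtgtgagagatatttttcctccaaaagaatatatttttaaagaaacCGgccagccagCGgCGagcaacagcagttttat
Tbr1: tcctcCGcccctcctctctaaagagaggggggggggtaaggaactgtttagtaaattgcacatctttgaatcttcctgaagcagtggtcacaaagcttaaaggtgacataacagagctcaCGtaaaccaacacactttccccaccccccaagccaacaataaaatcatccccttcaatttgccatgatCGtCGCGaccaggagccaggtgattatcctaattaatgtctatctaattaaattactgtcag
Cux2: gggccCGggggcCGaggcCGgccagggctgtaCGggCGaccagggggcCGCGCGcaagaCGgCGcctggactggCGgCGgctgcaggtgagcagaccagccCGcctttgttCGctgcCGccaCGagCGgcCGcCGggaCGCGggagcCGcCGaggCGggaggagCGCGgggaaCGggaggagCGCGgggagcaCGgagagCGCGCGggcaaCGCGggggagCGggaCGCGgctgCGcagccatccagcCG
Rorb: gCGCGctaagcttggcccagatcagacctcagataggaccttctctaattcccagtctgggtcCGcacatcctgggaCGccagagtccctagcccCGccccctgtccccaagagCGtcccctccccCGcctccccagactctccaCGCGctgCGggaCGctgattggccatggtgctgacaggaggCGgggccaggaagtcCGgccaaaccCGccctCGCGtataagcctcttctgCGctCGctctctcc
The stretch of Cux2 held 40 CG dinucleotides, a number reached by 1.31% of 32851 RefSeq promoters, against a median of 6. Rorb held 18, Fezf2 14, Bcl11b 9 and Tbr1 5. The letters GGGCGG, searched on both strands, were in the stretches of Fezf2, Tbr1 and Rorb and in 32.7% of all promoters, and CCAAT was in that of Rorb and in 33.8%. TATAAA was in none of these 5 stretches and in 12.4% of all promoters. Cux2 and Rorb have 2 curated starts, and the stretch shown is that of the upstream one. The stretch at the downstream start of Cux2 held TATAAA and 3 CG dinucleotides. That of Rorb held 4 CG dinucleotides and none of the 3 sets of letters.

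The members range from 3.97 kb (Fezf2) to 449.6 kb (Zfpm2) in length. No other curated start lies within 42.9 kb of a member's start. Cux1, Cux2, Rorb, Bcl11a and Etv1 have 2 curated starts each, and a peak within 1 kb of either was counted. Reads of those peaks are given as RPM, the reads per M reads in autosomal peaks of the library. These reads are of whole peaks, which can reach far beyond the window, so edgeR differences with the reads in the window alone are given for each member tested. For these the TMM scaling of edgeR was taken anew from the window reads, so they need not equal the ratio of RPM in the window. A library without a peak has no value above the threshold of the peak caller, and is drawn and listed at 0 with no fold taken against it.

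Across the series, reads in peaks ran from 9.16 to 18.99 M per library for H3K4me3, 3.94 to 27.3 M for H3K27ac and 2.99 to 18.2 M for H3K27me3. The cortex library 9 was the shallowest of H3K27ac, and the gastrocnemius library 5 had the most reads and the broadest cover (484 Mb) of H3K27me3. Of muscle genes, Ckm, Myh4, Tnnt3 and Mb had an H3K4me3 peak in no cortex library, and the 7 skeletal muscle markers summed to 634 to 1485 RPM in gastrocnemius against 124 to 151 RPM in cortex. The 5 excitatory neuron markers summed to 627 to 715 RPM of H3K4me3 in cortex and 47.6 to 107 RPM in gastrocnemius.

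**Figure D1:**
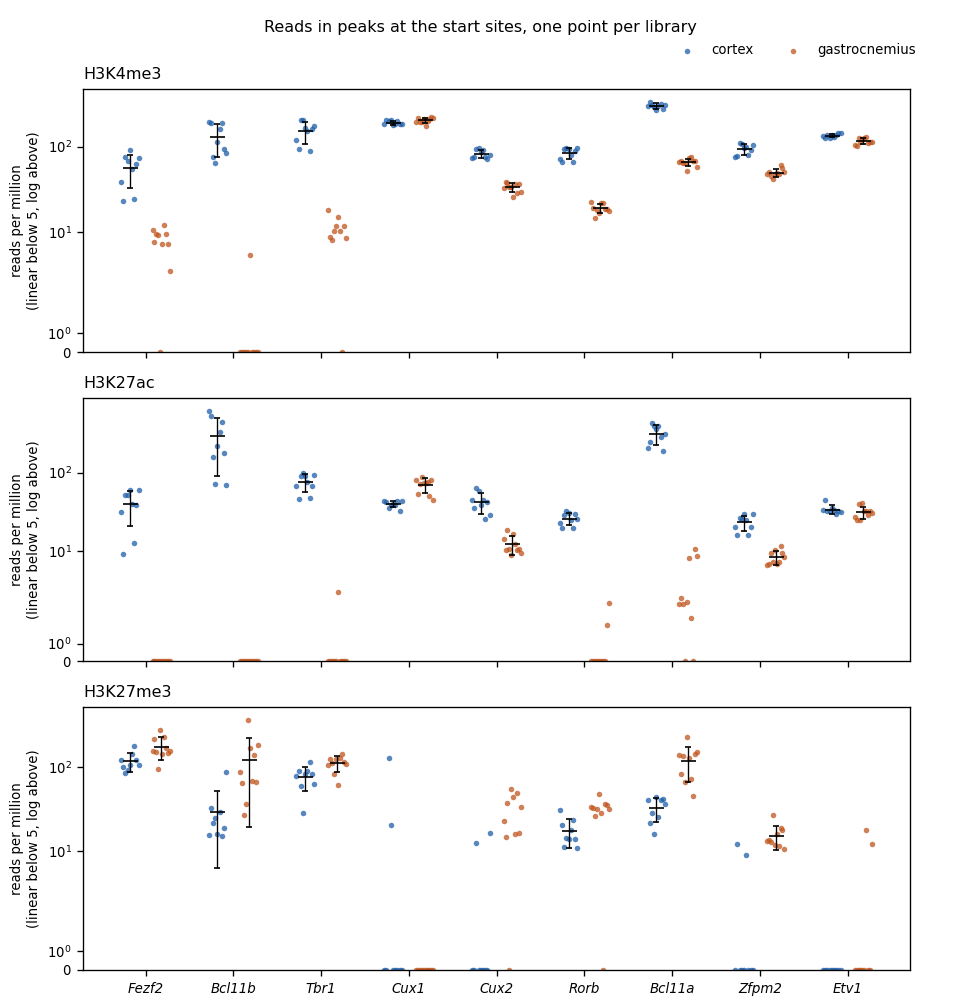
Reads in peaks within 1 kb of the start of each member, in RPM, for the 3 marks (panels), with 1 point per library, cortex in blue (9 libraries) and gastrocnemius in orange (10 libraries). Libraries without a peak lie at 0, the axis is linear below 5 and logarithmic above, and bars give mean ± SD where every library of the group had a peak; H3K27ac of Fezf2 and Bcl11b has no gastrocnemius point above 0.

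Fezf2, Bcl11b and Tbr1, the factors of deep-layer output neurons, carried H3K4me3 and H3K27ac in all 9 cortex libraries, while H3K27ac was absent or nearly so from their starts in muscle. At Fezf2, H3K27ac in cortex ran from 9.16 RPM through a median of 40.2 to 60.8 RPM, and no gastrocnemius library had a peak. At Bcl11b it ran from 69.7 through 220.0 to 623 RPM, again with no peak in the 10 gastrocnemius libraries. Both differences in calls passed Fisher's exact test (adjusted p = 0.000192, Benjamini-Hochberg over 19210 genes). At Tbr1 the cortex libraries ran from 46.1 through 76.5 to 99.4 RPM and 1 of 10 gastrocnemius libraries had a peak, of 3.99 RPM (adjusted p = 0.00147, Fisher's exact test with Benjamini-Hochberg adjustment). Rorb, the layer IV factor, followed with 9 of 9 cortex libraries (19.3, median 25.4, 32.4 RPM) against 2 of 10 (adjusted p = 0.00741, the same exact test). That call was lost with mice as blocks (adjusted p = 0.151, exact McNemar test), although the difference in calls stayed about as large. These 4 of 9 members called higher in cortex stand beside 9.18% of all genes tested, and no member was called higher in gastrocnemius, where 4.04% of genes were.

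Bcl11a had H3K27ac at its start in all 9 cortex libraries and in 8 of 10 gastrocnemius libraries, so its calls did not pass the exact test, but the levels did not overlap. The cortex libraries ran from 187 through 316 to 437 RPM and the gastrocnemius libraries from 0 through 3.36 to 10.5 RPM. With reads in the window alone these ranges were 15.1 to 22.1 RPM and 0 to 5.21 RPM. Without the 25% of peaks with the lowest score in each library, the calls differed by 80.0 percentage points (adjusted p = 0.00666, Fisher's exact test with Benjamini-Hochberg adjustment). Its 2 starts lie 2639 bp apart, and 8 gastrocnemius libraries had a peak at the upstream start and 3 at the downstream one, against 9 of 9 in cortex at both.

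The remaining members had H3K27ac in every library of both tissues, and their reads could be compared by edgeR's quasi-likelihood test over 13564 genes, of which 34.4% were called higher in cortex and 38.5% higher in gastrocnemius. Cux2 ran from 25.2 through 42.0 to 62.7 RPM in cortex and from 8.80 through 10.5 to 18.4 RPM in gastrocnemius, with no overlap (log2 difference 1.95 ± 0.18 SE, adjusted p = 1.09e-08, edgeR with Benjamini-Hochberg adjustment). Zfpm2 ran from 16.0 through 24.95 to 29.5 RPM and from 6.51 through 7.83 to 11.4 RPM, also with no overlap (log2 difference 1.61 ± 0.14 SE, adjusted p = 2.48e-09, edgeR). With reads in the window alone the log2 differences were 0.73 for Cux2 (adjusted p = 3.06e-06, edgeR) and 0.39 for Zfpm2 (adjusted p = 0.000304, edgeR), whose tissues then overlapped. Etv1 was close in both tissues, at 29.1, 32.2 and 45.0 RPM in cortex and 24.8, 31.3 and 40.6 RPM in gastrocnemius. Its log2 difference of 0.25 ± 0.10 SE was called (adjusted p = 0.0259, edgeR) but not without TMM scaling (0.11, adjusted p = 0.338, edgeR), which moved the median of all genes from -0.05 to -0.19, nor with reads in the window alone (0.030, adjusted p = 0.811, edgeR). In RPM its window reads averaged 16.3 in cortex and 13.3 in gastrocnemius, and were higher in cortex in 8 of 9 mice.

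Cux1 went the other way. Its H3K27ac peaks held 32.7, 39.4 and 43.5 RPM (lowest, median, highest) in cortex and 44.7, 73.8 and 88.8 RPM in gastrocnemius, without overlap, and were higher in gastrocnemius in 9 of 9 mice (log2 difference -0.67 ± 0.12 SE, adjusted p = 6.74e-05, edgeR with Benjamini-Hochberg adjustment). The peaks were wider there, at 17.6 ± 7.91 kb (SD, n = 10) against 5.04 ± 0.54 kb (SD, n = 9). Per kb of peak the order was the reverse, at 7.89 ± 0.87 RPM per kb in cortex and 4.68 ± 1.94 in gastrocnemius. When only the share of reads that falls in the window was counted, the log2 difference was 0.50, higher in cortex (adjusted p = 0.00442, edgeR with Benjamini-Hochberg adjustment).

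H3K4me3 was present at the start of all 9 members in all 9 cortex libraries. In gastrocnemius it was present in every library for Cux1, Cux2, Rorb, Bcl11a, Zfpm2 and Etv1, in 9 of 10 for Fezf2 and Tbr1, and in 1 of 10 for Bcl11b. Bcl11b was the single member whose H3K4me3 calls differed (adjusted p = 0.00204, Fisher's exact test with Benjamini-Hochberg adjustment), against 4.86% of genes called higher in cortex and 3.22% higher in gastrocnemius. With mice as blocks the difference was 88.9 percentage points against 90 without them, and the adjusted p was 0.131 (exact McNemar test). The smallest unadjusted p that 9 mice allow is 0.00391. Bcl11b ran from 63.5 through 113 to 193 RPM in cortex, and its lone gastrocnemius peak held 5.35 RPM.

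The H3K4me3 levels of Fezf2 and Tbr1 did not overlap between the tissues. Fezf2 ran from 23.3 through 62.0 to 90.5 RPM in cortex and up to 12.1 RPM in gastrocnemius, and Tbr1 from 89.5 through 159 to 204 RPM and up to 17.9 RPM. Among the 6 members with a peak in all libraries, 5 were called higher in cortex and Cux1 higher in gastrocnemius by edgeR, where 38.3% and 40.1% of 14148 genes were. Bcl11a ran from 269 through 299 to 337 RPM in cortex and from 52.0 through 66.5 to 75.5 RPM in gastrocnemius (log2 difference 2.19 ± 0.07 SE, adjusted p = 5.84e-17, edgeR with Benjamini-Hochberg adjustment). Rorb differed by about as much, with 65.5, 89.0 and 96.1 RPM against 14.7, 18.6 and 22.5 RPM (2.14 ± 0.10 SE, adjusted p = 5.89e-14, edgeR). With reads in the window alone the log2 differences were 0.46 for Bcl11a (adjusted p = 0.00363, edgeR) and 0.86 for Rorb (adjusted p = 5.76e-08, edgeR), both still without overlap. The H3K4me3 reads of Rorb were all at its upstream start, and no library of either tissue had an H3K4me3 peak at the downstream start 110079 bp into the gene.

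Cux2 differed by 1.31 ± 0.08 SE on the log2 scale (71.1, 79.6 and 97.4 RPM against 25.7, 33.7 and 39.0 RPM, adjusted p = 5.07e-12, edgeR with Benjamini-Hochberg adjustment) and Zfpm2 by 0.92 ± 0.07 SE (adjusted p = 5.20e-10, edgeR). Neither gene's tissues overlapped, but with reads in the window alone the differences were 0.66 for Cux2 (adjusted p = 1.50e-06, edgeR) and 0.15 for Zfpm2 (adjusted p = 0.277, edgeR). In RPM the window reads averaged 55.4 in cortex and 28.4 in gastrocnemius for Cux2, and 38.1 and 27.7 for Zfpm2. Those of Zfpm2 were higher in cortex in 7 of 9 mice, and its tissues overlapped. Etv1 and Cux1 had nearly equal H3K4me3 reads in their whole peaks, at medians of 136 and 114 RPM for Etv1 and 186 and 206 RPM for Cux1. Their log2 differences were 0.21 ± 0.05 SE (adjusted p = 0.000905, edgeR) and -0.10 ± 0.03 SE (adjusted p = 0.0109, edgeR with Benjamini-Hochberg adjustment). With reads in the window they were -0.17 for Etv1, not called (adjusted p = 0.212, edgeR), and -0.46 for Cux1 (adjusted p = 2.23e-06, edgeR). In RPM the window reads averaged 58.3 in cortex and 53.0 in gastrocnemius for Etv1, and 109 and 121 for Cux1.

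H3K27me3 lay over the starts of Fezf2, Tbr1, Bcl11b and Bcl11a in every library of both tissues, with more reads in gastrocnemius. All 4 were called higher in gastrocnemius by edgeR, where 29.9% of 2126 genes were and 27.2% were called higher in cortex. Bcl11a ran from 16.0 through 36.4 to 43.8 RPM in cortex and from 45.7 through 133 to 227 RPM in gastrocnemius, without overlap (log2 difference -1.81 ± 0.26 SE, adjusted p = 5.88e-06, edgeR with Benjamini-Hochberg adjustment). Bcl11b ran from 15.4 through 21.7 to 88.1 RPM and from 26.8 through 78.1 to 369 RPM, overlapping, and was higher in gastrocnemius in 9 of 9 mice (-1.96 ± 0.44 SE, adjusted p = 0.000734, edgeR). With reads in the window alone the log2 differences were -0.85 for Bcl11a (adjusted p = 0.000389, edgeR), whose tissues then overlapped, and -0.59 for Bcl11b (adjusted p = 0.0548, edgeR). The highest values of Bcl11b were those of cortex library 9 and gastrocnemius library 5, the latter being the library of broadest cover.

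The differences of Fezf2 and Tbr1 were smaller and their tissues overlapped, with more reads in gastrocnemius in 8 of 9 mice each. Fezf2 ran from 84.9 through 105 to 179 RPM in cortex and from 95.5 through 156 to 278 RPM in gastrocnemius, and Tbr1 from 28.8 through 82.0 to 114 RPM and from 62.0 through 114 to 143 RPM. The log2 differences were -0.53 ± 0.18 SE (adjusted p = 0.0189, edgeR) and -0.49 ± 0.19 SE (adjusted p = 0.0374, edgeR with Benjamini-Hochberg adjustment). With reads in the window alone they were 0.04 (adjusted p = 0.771, edgeR) and -0.09 (adjusted p = 0.470, edgeR). Per kb of peak Fezf2 held 5.63 ± 1.04 RPM in cortex and 5.23 ± 1.27 in gastrocnemius.

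The starts of Zfpm2 and Cux2 had H3K27me3 mostly in muscle. Zfpm2 had a peak in 2 of 9 cortex and 10 of 10 gastrocnemius libraries (adjusted p = 0.00586, Fisher's exact test with Benjamini-Hochberg adjustment), and Cux2 in 2 of 9 and 9 of 10 (adjusted p = 0.0319, the same exact test). Both calls were lost with mice as blocks (-77.8 and -66.7 percentage points against -77.8 and -67.8, adjusted p = 0.112 and 0.168, exact McNemar test) and without the libraries whose deposited names carry a run number (adjusted p = 0.107 and 0.141, Fisher's exact test), and that of Cux2 with a window of 3 kb (adjusted p = 0.252, Fisher's exact test). These 2 of 9 members stand beside 12% of genes called higher in gastrocnemius, and 0 of 9 beside 10% called higher in cortex. Rorb had a peak in 9 of 9 and 9 of 10 libraries, Cux1 in 2 of 9 and 0 of 10, and Etv1 in 0 of 9 and 2 of 10, none of which passed the exact test.

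**Figure D2:**
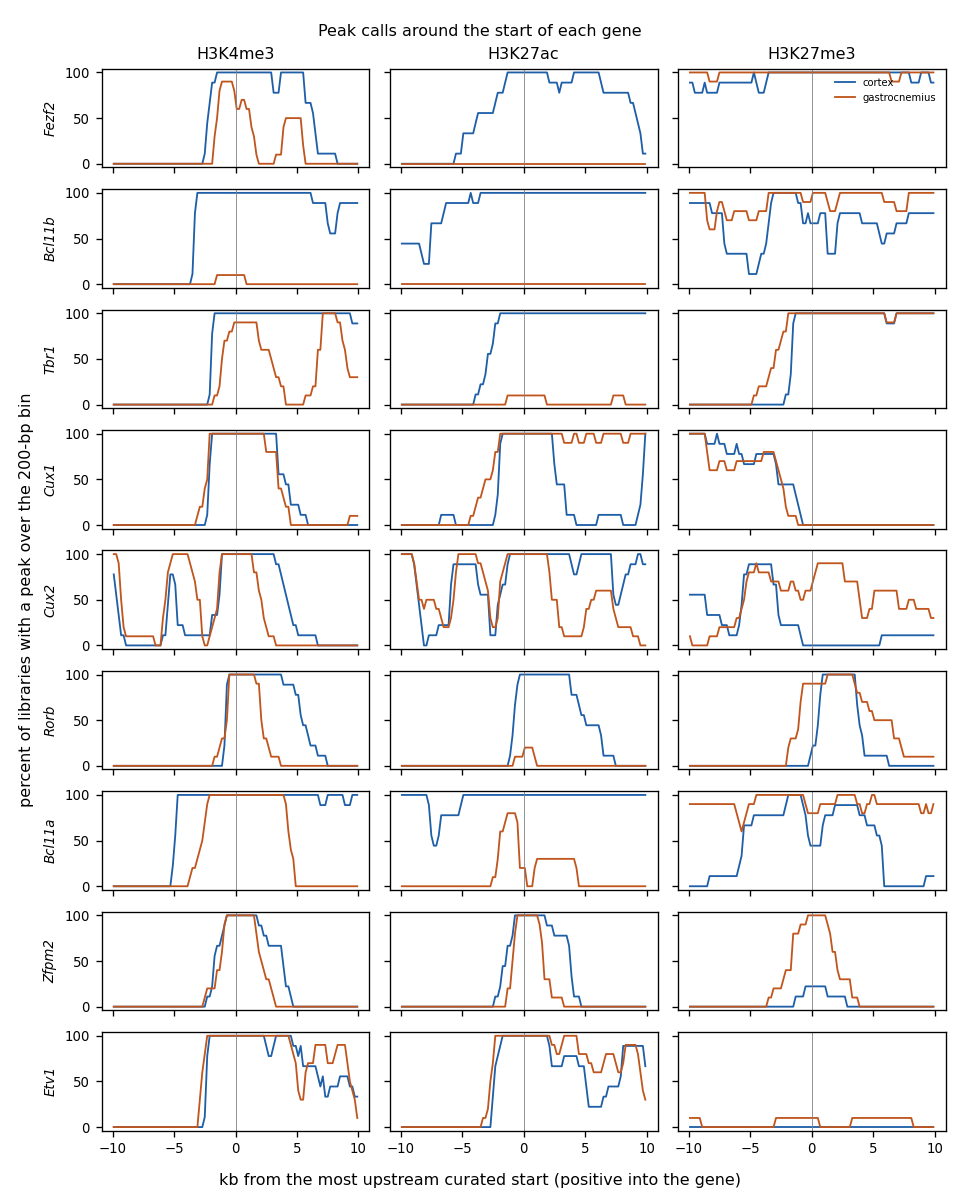
Percent of libraries with a peak over each 200-bp bin within 10 kb of the most upstream start of each member (rows), for the 3 marks (columns), cortex in blue and gastrocnemius in orange; positive distances run into the gene. H3K27ac of Fezf2 and Bcl11b stays at 0 in gastrocnemius over the whole stretch, and H3K27me3 of Zfpm2 is called in more gastrocnemius than cortex libraries at the start.

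At several starts H3K4me3 and H3K27me3 peaks of one mouse and tissue lay over the same bases. At Fezf2 and Tbr1 they shared the whole 2.001-kb window in 9 of 9 cortex samples and some of it in 9 of 10 gastrocnemius samples. At Bcl11a they shared bases in all 19 samples, on average 3.47 kb of a 4.64-kb window in cortex and 4.27 kb in gastrocnemius. At Zfpm2 they shared bases in 2 of 9 cortex and 10 of 10 gastrocnemius samples, at Cux2 in 2 and 9, and at Bcl11b in 9 and 1, where H3K4me3 itself was called in 1 of 10. Peaks of bulk tissue can overlap through different cells, and whether 1 nucleosome bore both marks was not tested.

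H3K27ac and H3K27me3 peaks also met at the starts of Fezf2, Bcl11b, Tbr1 and Bcl11a in all 9 cortex samples. In gastrocnemius they met in 8 of 10 samples at Bcl11a, 1 at Tbr1 and none at Fezf2 and Bcl11b. Zfpm2 and Cux2 ran the other way, with both marks meeting in 2 of 9 cortex samples each and in 10 and 9 of 10 gastrocnemius samples. At Rorb the marks were compared over the 112 kb that span both starts, not at the starts alone: H3K27ac and H3K27me3 shared bases there in 9 of 9 cortex and 2 of 10 gastrocnemius samples, and H3K4me3 and H3K27me3 in 9 of 9 and 10 of 10. When each mark and tissue was scored as called in all, some or none of its libraries, 0.384% of all genes (100 genes) had the scores of Fezf2 and Bcl11b, although H3K4me3 in some gastrocnemius libraries meant 9 of 10 for Fezf2 and 1 of 10 for Bcl11b. The scores of Rorb were shown by 10 genes and those of Etv1 by 1196 genes.

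The widths of the start peaks were compared by limma on the log2 scale. Over 14148 genes, H3K4me3 peaks were wider in cortex for 11.6% and wider in gastrocnemius for 65.6%, and the median log2 difference was -0.40. Cux2, Rorb, Bcl11a and Zfpm2 were nevertheless wider in cortex, Bcl11a at 20.8 ± 5.43 kb (SD, n = 9) against 7.30 ± 0.69 kb (SD, n = 10) and Rorb at 6.40 ± 1.07 against 3.20 ± 0.80 kb, while Cux1 and Etv1 did not pass the test. For H3K27ac, where 10.5% of genes were wider in cortex and 54.8% in gastrocnemius, Cux2 and Zfpm2 were wider in cortex and Cux1 and Etv1 in gastrocnemius. The H3K27ac peaks of Bcl11a and Bcl11b were broad in cortex, at 68.4 ± 21.3 kb and 59.0 ± 30.7 kb (SD, n = 9). For H3K27me3, where 7.48% of genes were wider in cortex and 19.5% in gastrocnemius, Fezf2, Bcl11b and Bcl11a were wider in gastrocnemius and Tbr1 was not called (adjusted p = 0.106, limma with Benjamini-Hochberg adjustment). The calls of Fezf2 and Bcl11a were lost without run-numbered libraries (adjusted p = 0.214 and 0.134, limma), those of Fezf2 and Bcl11b with widths in bp (adjusted p = 0.165 and 0.214, limma), that of Fezf2 also with mice as blocks (adjusted p = 0.119, limma) and without any of cortex libraries 1, 2, 3 and 5, and that of Etv1 for H3K27ac with mice as blocks (adjusted p = 0.138, limma). For H3K4me3 the call of Zfpm2 was lost without run-numbered libraries (log2 difference 0.34 against 0.44, adjusted p = 0.160, limma).

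**Figure D3:**
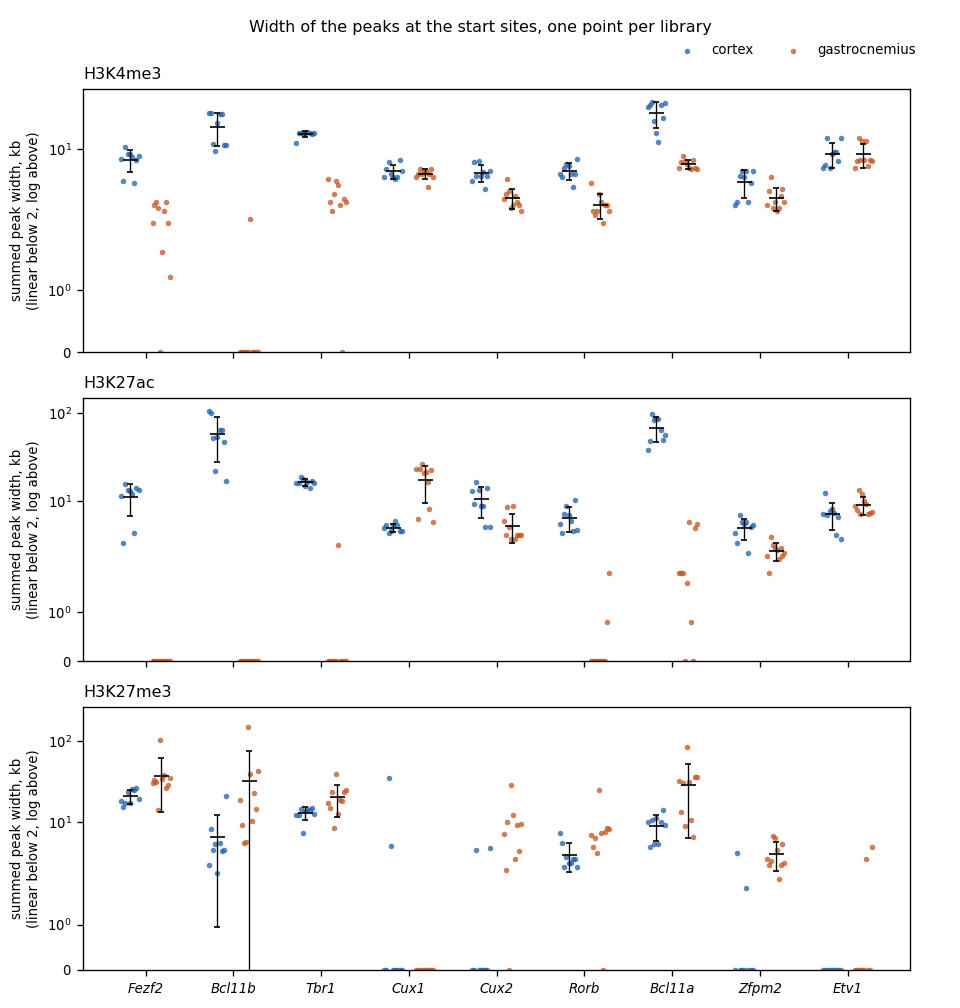
Summed width in kb of the peaks that touch the start window of each member, for the 3 marks (panels), with 1 point per library, cortex in blue and gastrocnemius in orange. Libraries without a peak lie at 0, the axis is linear below 2 and logarithmic above, and bars give mean ± SD where every library had a peak; H3K27ac of Cux1 is narrower in cortex (5.04 kb) than in gastrocnemius (17.6 kb).

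Over the gene bodies the contrast was widest for H3K27ac. The share of the gene span under peaks was 100% in all 9 cortex libraries for Tbr1, 72.1 to 100% for Fezf2, 73.6 to 100% for Bcl11b and 87.7 to 98.5% for Bcl11a. In gastrocnemius it was 0% for Fezf2 and at most 18.1% for Tbr1, 1.08% for Bcl11b and 3.92% for Bcl11a. Among 5002 genes of at least 50 kb, 1.38% had a mean cover in cortex at or above that of Bcl11a (94.2%) and 1.86% at or above that of Bcl11b (92.4%). Cux2 was covered to 68.6 ± 10.7% (SD, n = 9) in cortex and 25.3 ± 7.56% (SD, n = 10) in gastrocnemius, and Cux1 to 46.0 ± 8.60% and 76.4 ± 7.79%, in the opposite direction.

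By limma on the percent of the span covered, 8 of 9 members had more H3K27ac in cortex and Cux1 had more in gastrocnemius, where 25.4% and 35.8% of 19994 genes were called. The difference of Etv1 was small and the call not stable (3.67 ± 1.68 percentage points SE, adjusted p = 0.0720, limma with Benjamini-Hochberg adjustment), with 0.70 points and no call when equally many peaks were kept per library. H3K4me3 spread over 35.6 ± 10.97% (SD, n = 9) of Bcl11b in cortex, a level reached by 0.10% of the long genes, and over 20.8 ± 1.26% of Bcl11a. It covered more of the span in cortex for 7 of 9 members and more in gastrocnemius for Cux1, beside 17.1% and 50.2% of 18118 genes.

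H3K27me3 covered the whole of Fezf2 in every library of both tissues and 91.7 to 100% of Tbr1. It covered 56.8 ± 19.2% (SD, n = 9) of Bcl11b in cortex and 90.1 ± 8.22% (SD, n = 10) in gastrocnemius (-33.3 ± 6.46 percentage points SE, adjusted p = 0.000421, limma with Benjamini-Hochberg adjustment), and 7.63 ± 5.40% and 44.1 ± 16.3% of Bcl11a (-36.4 ± 5.82 points SE, adjusted p = 5.59e-05, limma). These 2 of 8 members tested were the only ones called, both higher in gastrocnemius, beside 22.1% of 12905 genes called higher there and 24.4% called higher in cortex. Cux1 had no H3K27me3 peak on its span in any library, and its peaks in 2 cortex libraries lay upstream of it.

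**Figure D4:**
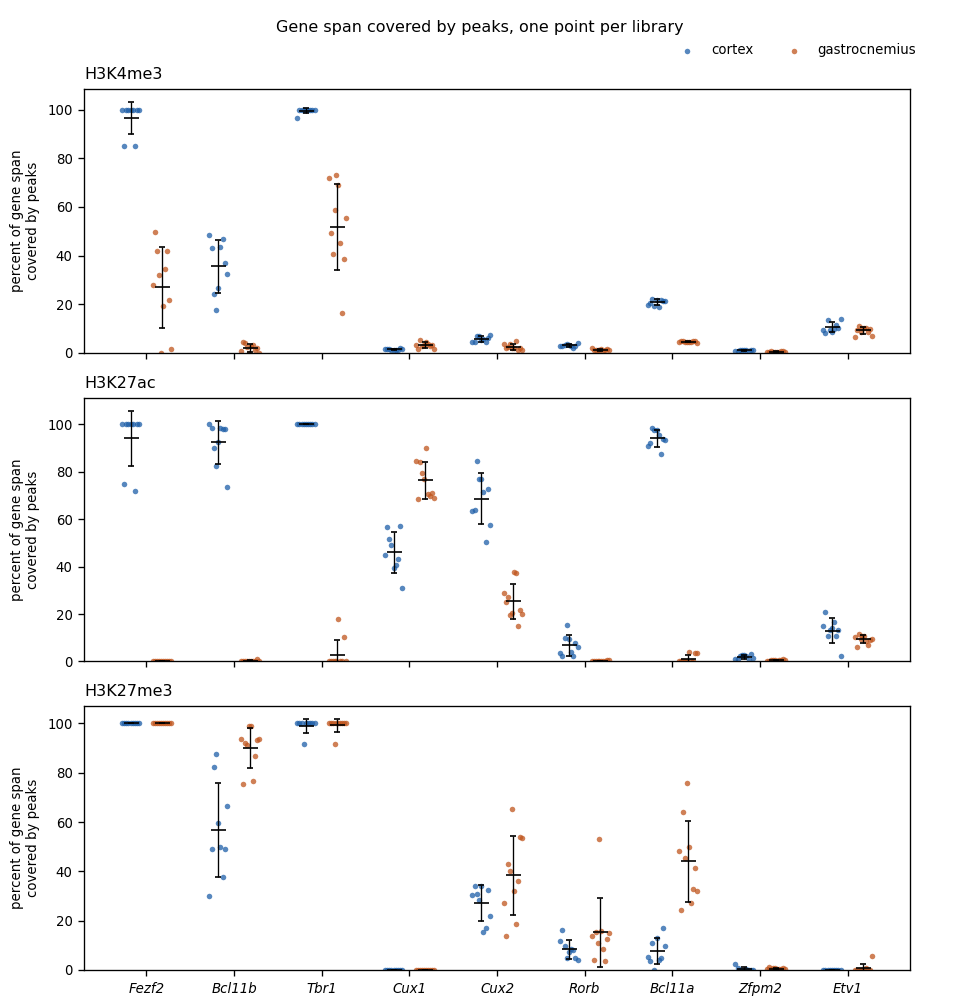
Percent of the span of each member covered by peaks, for the 3 marks (panels), with 1 point per library, cortex in blue (9) and gastrocnemius in orange (10), and mean ± SD as bars. H3K27ac reaches 100% for Tbr1 in all cortex libraries, and H3K27me3 of Bcl11a averages 7.63% in cortex and 44.1% in gastrocnemius.

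Within the cortex libraries the whole-peak reads of Bcl11b varied differently from those of Fezf2 and Tbr1, the members compared library by library. The 4 libraries of highest H3K4me3 at Drd1, a striatal marker, are set against the other 5. H3K27ac of Bcl11b was 623, 535, 331 and 443 RPM in cortex libraries 1, 2, 6 and 7 and 69.7 to 220.0 RPM in the others, while Fezf2 in those 4 libraries was 31.8, 9.16, 40.2 and 12.5 RPM against 38.6 to 60.8 RPM, overlapping in 1 library. H3K4me3 went the same way, with Bcl11b at 161 to 193 RPM in the 4 libraries and 63.5 to 113 RPM in the others, and Tbr1 at 89.5 to 152 RPM and 159 to 204 RPM. H3K4me3 summed over the striatal projection neuron markers Drd1, Drd2, Adora2a and Ppp1r1b, a sum that includes the gene the libraries were chosen by, was 291 to 354 RPM in these 4 libraries and 116 to 240 RPM in the others. The H3K27ac sums of the same markers overlapped, at 322 to 549 RPM and 165 to 366 RPM, the highest of the others being library 8, where H3K27ac of Bcl11b was 177 RPM. In H3K4me3 the 3 inhibitory neuron markers summed to 282 to 472 RPM and 120 to 185 RPM, and the 5 excitatory neuron markers to 654 to 715 RPM and 627 to 697 RPM. The part of other cell types in these levels was not tested. The levels are of whole peaks. In the window alone the cortex reads of Bcl11b ran from 6.02 to 13.6 RPM for H3K27ac and 13.1 to 18.5 RPM for H3K4me3. Those of Fezf2 ran from 5.37 to 9.36 RPM for H3K27ac and of Tbr1 from 12.98 to 29.4 RPM for H3K4me3. The lowest H3K27ac of Bcl11b, 69.7 RPM, was in library 9, with 3.94 M reads in peaks. Library 4, with 16.1 M, held 71.5 RPM. Whether window reads part the 4 libraries from the others was not tested.

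With these 4 cortex mice left out, an alternative chosen after seeing the data, the H3K27me3 difference of Bcl11b was -1.67 on the log2 scale (adjusted p = 0.0225, edgeR with Benjamini-Hochberg adjustment), and its cover differed by -21.2 percentage points (adjusted p = 0.0127, limma). The call of Cux2 for H3K27me3 was lost (adjusted p = 0.312, Fisher's exact test), as were the H3K27me3 width calls of Fezf2, Bcl11b and Bcl11a (adjusted p = 0.212, 0.105 and 0.135, limma), whose log2 differences were -0.68, -1.72 and -1.19 against -0.68, -1.79 and -1.38 with all mice, and the H3K27ac cover call of Etv1 (1.41 percentage points, adjusted p = 0.523, limma). A call of Zfpm2 for H3K27me3 cover was gained (-0.56 points, adjusted p = 0.0848, limma with Benjamini-Hochberg adjustment).

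**Figure D5:**
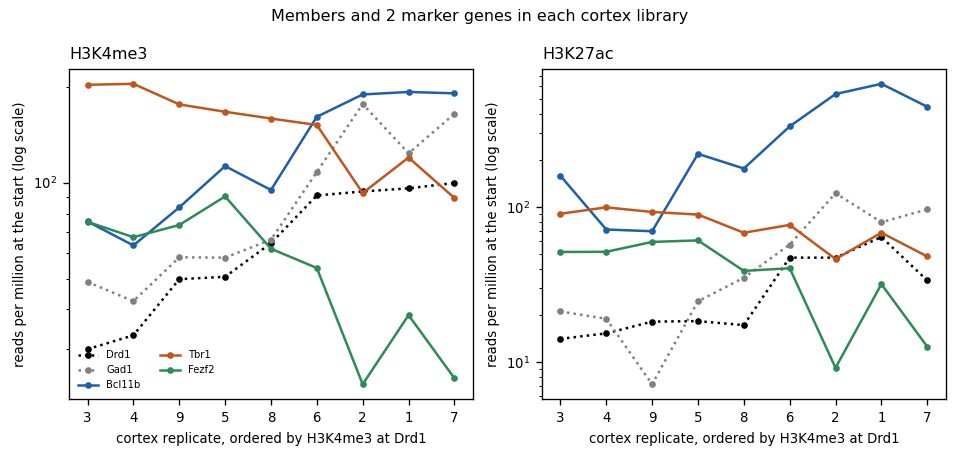
H3K4me3 (left) and H3K27ac (right) at the start of Bcl11b, Tbr1 and Fezf2 and of the markers Drd1 and Gad1, in RPM on a log axis, in each of the 9 cortex libraries ordered by H3K4me3 at Drd1. Bcl11b is highest in libraries 1, 2 and 7, where Fezf2 and Tbr1 are low.

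The other genes of projection neuron identity formed a list of 25, whose counts are set beside the shares over all genes tested. For H3K27ac calls 7 of 25 were higher in cortex and 1 in gastrocnemius, beside 9.18% and 4.04%, and by cover 16 and 6 of 25, beside 25.4% and 35.8%. For H3K27ac width 6 and 5 of 14 were called, beside 10.5% and 54.8%. For H3K4me3 reads 13 of 20 tested were higher in cortex and 6 in gastrocnemius, beside 38.3% and 40.1%, with a median log2 difference of 0.63 beside -0.01 over all genes. For H3K27me3 reads 0 of 10 were higher in cortex and 4 in gastrocnemius, beside 27.2% and 29.9%, and by cover 4 and 7 of 20, beside 24.4% and 22.1%. Pou3f3, a POU factor of upper layers, had H3K27ac in cortex alone (162 to 259 RPM) and H3K27me3 in 1 of 9 cortex and 10 of 10 gastrocnemius libraries. Nfib was higher in gastrocnemius for H3K27ac, at 218 to 802 RPM against 94.4 to 164 RPM, Pou3f1 had more H3K27me3 there (143 to 405 RPM against 28.5 to 74.1 RPM), and Pou3f2 had 139 to 225 RPM of H3K4me3 in cortex against 31.0 to 45.2 RPM.

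The genes most like each member were sought over the 57 libraries, by the Euclidean distance of log2(RPM + 1) at the start. Nearest to Fezf2 were Olig1 (distance 5.60) and Emx1 (6.30), to Bcl11b Myt1l (6.98), and to Tbr1 Rprml (5.90) and Elavl2 (6.04), where the median distance to all genes was 35.3 to 37.3. Cux2 was nearest to Stambpl1 (7.28), Rorb to Tmem200a (6.21), Bcl11a to G630016G05Rik (8.16), Zfpm2 to Slc35f1 (5.52), Cux1 to 2500002B13Rik (5.53), and Etv1 equally to 4930426I24Rik and Hspa2 (3.998).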

How the data were processed

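Peaks were deposited for each of 57 libraries. Per the study's methods the authors used BWA to align to mm10 and SAMtools to filter, and called peaks in each library with epic2. The deposited count of a peak is the whole number of reads the authors counted in it, not normalized, and the deposited score was used only to rank peaks. Peak widths are multiples of 200 bp. Reads outside peaks were not used here.

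Python 3.11.15 with NumPy 2.4.6, SciPy 1.17.1 and matplotlib 3.10.9, and DESeq2 1.42.0, limma 3.58.1 and edgeR 4.0.16 under R 4.3.3 were used. Genes were curated RefSeq genes of GRCm38.p6, whose coordinates equal mm10. Peaks within 1 kb of any curated start were summed per gene. Calls were compared by two-sided Fisher's exact test over genes called at least once, reads by edgeR's quasi-likelihood test with TMM and widths (log2) by limma over genes called in all 19 libraries of a mark, and the percent of the span covered by limma over genes with a peak. Differences are cortex minus gastrocnemius, and calls have an FDR under 0.1 after Benjamini-Hochberg adjustment over all genes tested. The members and lists were chosen with earlier results of these data known. All members were named, and of the other projection neuron genes the 3 with the largest difference in mean RPM per mark, of which some are not reported here. Mice were identified from the deposited names, and the numbers of the labels do not pair the tissues. Deviations of the same mouse from the tissue means correlated across genes with r of -0.05 to 0.14 over the 3 marks. Libraries are from separate mice within a tissue. The code was tested on simulated data. Alternatives changed the window, the peaks kept, the normalization, the tool, the genes tested, the reads counted, the pairing and the libraries.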

Additional observations from a re-analysis of the deposited data

Results flagged for a closer look

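Of 50 groups of reads at the starts of the members, 8 held a library far from the others, by the gap to its nearest neighbour relative to the range of the group (Dixon's 95% critical value), where chance flags about 1 in 20 groups of normal values. In groups where nearly all libraries were without a peak a single peak is flagged by construction, so the 8 cannot be set against that rate. For H3K27me3 these were Bcl11b in cortex library 9 (88.1 RPM, the next being 32.5 RPM), Bcl11b in gastrocnemius library 5 (369 RPM, next 186 RPM), Cux1 in cortex library 3 (130 RPM, next 20.6 RPM), Zfpm2 in gastrocnemius library 4 (26.7 RPM, next 18.7 RPM) and Rorb in gastrocnemius library 7, which had no peak (0 RPM, next 26.1 RPM). For H3K27ac they were Etv1 in cortex library 2 (45.0 RPM, next 35.6 RPM) and Tbr1 in gastrocnemius library 6 (3.99 RPM, the others without a peak), and for H3K4me3 Bcl11b in gastrocnemius library 6 (5.35 RPM, the others without a peak).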

How the results depend on the processing

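With mice as a replicate block the genes called by peak presence numbered 807 for H3K4me3, 1618 for H3K27ac and 1111 for H3K27me3, against 1410, 2541 and 2598 without it, and beside the calls given above the block also ended the H3K27me3 width call of Fezf2 and the H3K27ac width and cover calls of Etv1, and made the H3K27me3 width of Tbr1 a call. For H3K27me3 calls, 1513 genes were called without run-numbered libraries and 1616 without the 4 cortex mice of highest Drd1. With uncalled libraries at 0 reads, 6802 of 11801 genes tested were called for H3K27me3 reads, against 1215 of 2126. With only reads in the window counted, and TMM taken anew from them, values changed sign for H3K27ac of Cux1 (0.50), H3K4me3 of Etv1 (-0.17) and H3K27me3 of Fezf2 (0.038, all log2). In RPM the H3K4me3 window reads of Etv1 stayed higher in cortex, at 58.3 against 53.0 on average. Values also changed sign for H3K27me3 calls of Cux1 with a 3 kb window (-2.22 percentage points) and of Rorb with equally many peaks (-23.3 points), and, without run-numbered libraries, for the H3K4me3 width of Etv1 (-0.030 log2) and the H3K27me3 cover of Tbr1 (0.20 points) and Rorb (0.091 points). None of the latter was called. Leaving out 1 library at a time gave -0.051 to 0.072 for the H3K4me3 width of Etv1 and -0.92 to 0.83 points for the H3K27me3 cover of Tbr1. It ended the H3K27me3 width call of Fezf2 without cortex library 1, 2, 3 or 5 (adjusted p of 0.101 to 0.113, limma), the H3K27ac width call of Etv1 without cortex library 1, 3, 6, 7, 8 or 9 or gastrocnemius library 1, 3, 5, 6 or 7, and its cover call without cortex library 1, 2, 5 or 6 or gastrocnemius library 2 or 8. It gave calls for the H3K27me3 width of Tbr1 (without gastrocnemius library 2, 4 or 6) and the H3K27me3 cover of Cux2 (gastrocnemius 2 or 7) and Zfpm2 (cortex 1). With widths in bp the H3K27me3 calls of Fezf2 and Bcl11b were lost. The split of width calls for H3K27me3 moved to 330 higher in cortex and 205 in gastrocnemius without run-numbered libraries, and to 287 and 385 with the block, from 159 and 414. For H3K27ac reads it was 3642 and 6343 with library totals, from 4664 and 5227. The cause of these changes was not tested. Reads below the threshold of the caller limit what can be said of a library without a peak.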
